A study of Homo sapiens with 2 samples.

Results

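Glycolysis and hypoxia-response genes were followed in astrocyte progenitors made from H7, an established human embryonic stem cell line. The set holds 34 genes, 20 of glycolysis and its lactate and pyruvate branch and 14 of the response to low oxygen, chosen by gene symbol from the 36601 features of the count tables. All 34 symbols were found. The study collected 1 library of differentiated cells at day 220 and 1 at day 160. By the labels, both cultures received LIF, BMP4 and FGF1, the cells of 3 differentiations were mixed before loading, and RNA was captured with a 10x Genomics 3′ kit. No label separates the 3 differentiations, so each day was 1 sample without a replicate. All differences below are between these 2 libraries, no test was possible, and intervals are 95% intervals that cover counting error only. The extraction text given for day 220 speaks of day 160, and the deposited names of the libraries carry different prefixes that no label explains, so time and other differences between the cultures cannot be told apart.

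Glycolysis splits glucose into pyruvate in the cytosol and yields ATP and NADH. Pyruvate then goes to lactate through lactate dehydrogenase or enters the mitochondria through pyruvate dehydrogenase, which the PDK kinases hold back. When oxygen is short, prolyl hydroxylases of the EGLN family stop marking hypoxia-inducible factor (HIF) for breakdown. HIF then binds short DNA elements near genes of glucose uptake, glycolysis, blood vessel growth, collagen modification and mitochondrial clearance. Astrocytes are known for strong glycolysis and release of lactate, and neurons for a greater reliance on oxidative metabolism.

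HIF binds elements with the core ACGTG or GCGTG, and promoter sequence is shown for 4 members past 2-fold between the libraries and for BNIP3, whose window held the most cores. The promoter windows are 250 bases before a RefSeq transcript start on GRCh38.p14, written 5′ to 3′ along the gene's strand. Capitals mark the cores on either strand, which read CACGT or CACGC on the other one, and cores that share letters were counted as 1.
GAPDH (chr12:6535014-6535263, plus strand): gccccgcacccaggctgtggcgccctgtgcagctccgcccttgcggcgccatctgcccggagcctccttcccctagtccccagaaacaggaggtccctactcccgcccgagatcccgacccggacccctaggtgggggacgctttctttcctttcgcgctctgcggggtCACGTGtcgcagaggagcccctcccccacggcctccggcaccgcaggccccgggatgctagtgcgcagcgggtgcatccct
LDHA (chr11:18394313-18394562, plus strand): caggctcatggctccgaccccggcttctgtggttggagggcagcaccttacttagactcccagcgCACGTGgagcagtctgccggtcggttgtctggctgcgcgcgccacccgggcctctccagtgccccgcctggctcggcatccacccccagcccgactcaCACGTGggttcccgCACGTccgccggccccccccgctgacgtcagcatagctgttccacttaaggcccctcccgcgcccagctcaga
P4HA1 (chr10:73096867-73097116, minus strand): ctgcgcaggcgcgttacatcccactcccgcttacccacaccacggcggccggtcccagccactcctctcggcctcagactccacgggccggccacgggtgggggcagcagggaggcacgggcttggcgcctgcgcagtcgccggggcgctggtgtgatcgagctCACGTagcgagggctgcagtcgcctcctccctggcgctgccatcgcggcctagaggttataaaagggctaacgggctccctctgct
P4HA2 (chr5:132227092-132227341, minus strand): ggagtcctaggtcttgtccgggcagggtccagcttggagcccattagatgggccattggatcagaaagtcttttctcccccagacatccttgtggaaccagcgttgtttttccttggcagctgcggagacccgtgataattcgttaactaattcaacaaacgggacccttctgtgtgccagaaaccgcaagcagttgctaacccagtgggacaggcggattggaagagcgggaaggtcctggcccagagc
BNIP3 (chr10:131981924-131982173, minus strand): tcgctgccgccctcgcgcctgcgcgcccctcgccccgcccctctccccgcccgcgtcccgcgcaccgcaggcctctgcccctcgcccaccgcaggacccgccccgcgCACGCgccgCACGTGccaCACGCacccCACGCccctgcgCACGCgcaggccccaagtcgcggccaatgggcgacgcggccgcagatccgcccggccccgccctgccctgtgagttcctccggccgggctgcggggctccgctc
GAPDH had 1 core and LDHA 3 in these windows, P4HA1 had 1, P4HA2 had none, and BNIP3 had 5. A further LDHA window, chr11:18396101-18396350, held 1. The GAPDH and P4HA2 windows lie wholly inside the annotated genes, before transcript starts within them. Among 50 windows of members, 28 (56.0%) held at least 1 core, against 47.9% of the 24034 windows of all genes in the feature table. Windows were at hand for 10 of the 14 hypoxia-response members, 1 each, and 8 held a core. For 19 of the 20 glycolysis members there were 40 windows, 7 each for HK1 and PFKM, and 20 of the windows and 15 of the genes held a core, so shares of windows are not shares of genes. Of the windows with 10 or more CG dinucleotides, 68.6% of those of members and 61.8% of all held a core. A match is a description of letters, and binding was not measured.

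After keeping barcodes with at least 1000 genes and at most 15% of UMIs from mitochondrial genes, 524 cells remained in the day 220 library and 9972 in the day 160 library. A UMI stands for 1 captured RNA molecule. The day 220 cells had a median of 46438 UMIs and the day 160 cells 10457.5, and the summed counts were 25981066 and 128847264 UMIs. Mitochondrial genes took 8.79% of UMIs in the day 220 cells and 11.7% in the day 160 cells, and ribosomal protein genes 12.3% and 14.998%. The libraries shared 3 barcodes, 2 of them among the kept cells. Of 12 astrocyte markers, 11 at day 220 and 12 at day 160 reached 1 count per 10⁶ UMIs (CPM), while 0 of 5 endothelial and 0 of 5 microglial markers did so in either library. All 12 radial glia and all 15 cycling markers also reached it in both libraries. Of 11 neuron markers, 8 at day 220 and 10 at day 160 did, so reaching this level does not set astrocytes apart. Markers of cycling cells summed to 788 CPM at day 220 and 2169 CPM at day 160, and those of neuronal precursors to 809 and 2214 CPM, so the mix of cells differed, and its part in a difference over all cells was not tested.

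In the summed counts of all kept cells, most glycolysis transcripts were lower at day 220, led by GAPDH, LDHA and LDHB, whereas HK1, ALDOA, VEGFA and the collagen hydroxylase genes P4HA1 and P4HA2 were higher. The 20 glycolysis members together took 3401 CPM at day 220 (3379 to 3424) and 5922 CPM at day 160 (5908 to 5935), which is 1.74-fold lower (1.73 to 1.75). The 14 hypoxia-response members took 411 CPM and 462 CPM, which is 1.13-fold lower (1.10 to 1.15). GAPDH and LDHB supplied 55.7% of the glycolysis counts at day 220 and 67.2% at day 160. The other 18 glycolysis members summed to 1507 CPM and 1943 CPM, 1.29-fold lower (1.28 to 1.303).

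Of the 34 members, 27 reached 10 CPM in at least 1 library and were counted. SLC2A3 and P4HA2 reached that level through day 220 only and HILPDA through day 160 only, so these 3 entered on the side where they were high. At day 220, 5 of the 27 were at least 2-fold higher, where 22.8% of all 10167 counted genes were, and 3 were at least 2-fold lower, where 5.15% of all were. The members' share was 18.5% on the higher side and 11.1% on the lower side. With counts of 5 and 3, neither share was read as different from the background. The log2 ratio of day 220 CPM + 1 over day 160 CPM + 1 had a median of -0.21 over the counted members and 0.14 over all counted genes, and 16 of the 27 members lay below 0. Glycolysis members had a median of -0.33 over 18 genes, with 2 higher and 2 lower, and hypoxia-response members 0.04 over 9 genes, with 3 higher and 1 lower. A ratio centred on genes of like intron length put 3 members higher, where 10.4% of genes were, and 3 lower, where 7.54% were. The higher ones were SLC2A3 (1.15), ALDOA (1.52) and VEGFA (1.49), and this side then did not lie below the background. The lower ones were PGK1 (-2.18), LDHB (-2.02) and BNIP3L (-1.51). None of them was among the 3 lower before centring, which were GAPDH, LDHA and HILPDA. UMIs of a 3′ kit are not comparable between genes as levels, and each gene is compared with itself below.

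**Figure D1:**
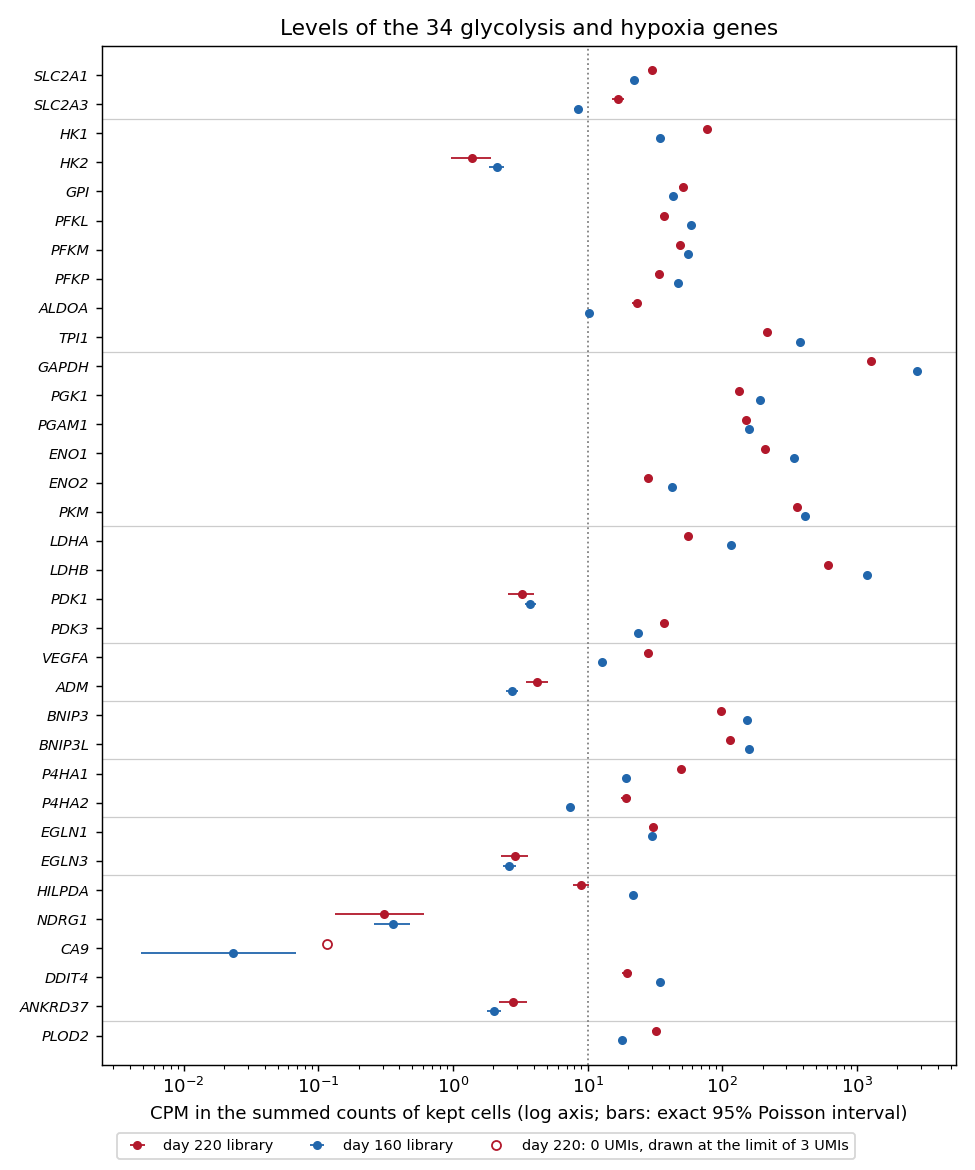
CPM of each of the 34 genes in the summed counts of kept cells, day 220 in red above day 160 in blue, on a log axis with exact Poisson intervals and a dotted line at 10 CPM. GAPDH lies at 1280 CPM at day 220 and 2779 CPM at day 160, and CA9, with 0 UMIs at day 220, is drawn as an open circle at the limit of 3 UMIs.

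The glucose transporters were both higher at day 220 without reaching 2-fold. SLC2A1, which encodes GLUT1, the transporter of glia and the blood-brain barrier, had 30.3 CPM at day 220 and 22.1 CPM at day 160, 1.37-fold higher (1.27 to 1.48). SLC2A3, which encodes GLUT3, the high-affinity transporter known from neurons, had 16.9 CPM and 8.48 CPM, 1.99-fold higher (1.77 to 2.22). The interval of SLC2A3 reaches past 2-fold, and its log2 ratio of 0.91 lies just inside the limit. Against genes of like intron length it was 1.15.

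Among the enzymes from hexokinase to triose phosphate isomerase, HK1 and ALDOA were the 2 past 2-fold, both higher. HK1 (ENSG00000156515, chromosome 10, 69269984 to 69401884 on GRCh38), the hexokinase that traps glucose in most tissues, had 76.9 CPM at day 220 and 34.3 CPM at day 160, 2.24-fold higher (2.13 to 2.37). HK1 spans 125605 bases of intron, and against genes of like intron length its log2 ratio was 0.09 in place of 1.14. HK2, the hypoxia-inducible hexokinase, had only 1.39 CPM and 2.11 CPM and was not counted. ALDOA (ENSG00000149925, chromosome 16, 30064164 to 30070457), the aldolase of muscle and most other cells, had 23.2 CPM at day 220 and 10.3 CPM at day 160, 2.25-fold higher (2.04 to 2.48). Its log2 ratio of 1.10 was 0.96 when centred on the median of all counted genes and 1.52 against genes of like intron length. ALDOA shares 1657 of its 3916 annotated exon bases with the gene AC093512.2 on the same strand, which had 0.46 CPM and 0.05 CPM, so how reads were divided between them makes the level of ALDOA uncertain.

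The remaining genes of upper glycolysis stayed within 2-fold. The 3 phosphofructokinase genes, whose enzymes make the committed step, were all lower. PFKL, the liver-type subunit, had 36.9 CPM at day 220 and 58.2 CPM at day 160, PFKM, the muscle type, 48.7 and 55.3 CPM, and PFKP, the platelet type, 34.1 and 47.1 CPM. Their log2 ratios were -0.64, -0.18 and -0.46. TPI1, triose phosphate isomerase, had 214 CPM and 376 CPM, 1.75-fold lower (1.71 to 1.80). GPI, which converts glucose 6-phosphate to fructose 6-phosphate, had 50.9 CPM and 43.3 CPM, 1.17-fold higher (1.10 to 1.25).

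All 6 genes of lower glycolysis, from GAPDH to PKM, lay below 0, with a sum of 2158 CPM at day 220 and 3922 CPM at day 160, 1.82-fold lower (1.80 to 1.83). Centred on genes of like intron length, PGAM1 turned to 0.30 and the other 5 stayed below 0. GAPDH (ENSG00000111640, chromosome 12, 6533927 to 6538374), which oxidises glyceraldehyde 3-phosphate, had 1280 CPM at day 220 and 2779 CPM at day 160, 2.17-fold lower (2.15 to 2.20). It was the most counted member in both libraries, and its log2 ratio of -1.12 became -0.69 against genes of like intron length. ENO1, the general enolase, had 208 CPM and 339 CPM, and ENO2, the neuronal enolase, had 28.1 CPM and 42.5 CPM, 1.63-fold and 1.51-fold lower. PGK1, the kinase that makes the first ATP of the pathway, had 132 CPM and 190 CPM, 1.44-fold lower (1.39 to 1.49). Its log2 ratio of -0.52 was -2.18 against genes of like intron length. PKM, pyruvate kinase, had 359 CPM and 414 CPM, and PGAM1, phosphoglycerate mutase, 151 CPM and 157 CPM, the smallest differences of the group at 1.15-fold and 1.04-fold lower.

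Both lactate dehydrogenase genes were about 2-fold lower at day 220. LDHA (ENSG00000134333, chromosome 11, 18394388 to 18408425), whose enzyme subunit favours lactate formation, had 55.7 CPM at day 220 and 116 CPM at day 160, 2.08-fold lower (1.97 to 2.19). Its log2 ratio of -1.04 was -0.71 against genes of like intron length and -0.87 without cells that had a UMI of the division genes MKI67 or TOP2A. LDHB, whose subunit favours the reverse reaction, had 614 CPM and 1199 CPM, 1.95-fold lower (1.92 to 1.99), just inside the 2-fold limit at a log2 ratio of -0.97. Against genes of like intron length this ratio was -2.02, past the limit. LDHA was 8.31% of the counts of both genes at day 220 (7.91 to 8.73) and 8.79% at day 160 (8.65 to 8.92), so the 2 genes were lower by nearly the same factor. PDK3, a pyruvate dehydrogenase kinase, had 36.9 CPM and 23.9 CPM, 1.54-fold higher (1.44 to 1.66), and its log2 ratio of 0.61 was 0.09 against genes of like intron length. PDK1, the HIF-induced kinase, was not counted at 3.23 CPM and 3.76 CPM.

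The hypoxia-response members did not move in 1 direction. VEGFA (ENSG00000112715, chromosome 6, 43770184 to 43786487), the secreted factor that drives vessel growth, had 28.1 CPM at day 220 and 12.9 CPM at day 160, 2.18-fold higher (1.996 to 2.38). Its log2 ratio of 1.07 was 0.93 when centred on the median of all counted genes and 1.49 against genes of like intron length. ADM, which encodes the vasodilator peptide adrenomedullin, had 4.23 CPM and 2.75 CPM and was not counted. The 3 collagen hydroxylase genes were all higher, summing to 101 CPM and 44.8 CPM, 2.26-fold higher (2.16 to 2.37). P4HA1 (ENSG00000122884, chromosome 10, 73007217 to 73096974), a catalytic subunit of collagen prolyl 4-hydroxylase, had 49.8 CPM and 19.3 CPM, 2.57-fold higher (2.41 to 2.75). P4HA2 (ENSG00000072682, chromosome 5, 132191838 to 132295315), another such subunit, had 19.4 CPM and 7.44 CPM, 2.60-fold higher (2.33 to 2.90), and PLOD2, a lysyl hydroxylase, had 32.3 CPM and 18.04 CPM, 1.79-fold higher (1.65 to 1.94). The 3 genes span 86568 to 94976 bases of intron, and against genes of like intron length their log2 ratios were 0.76, 0.52 and 0.25 in place of 1.32, 1.27 and 0.81.

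On the lower side, HILPDA (ENSG00000135245, chromosome 7, 128455849 to 128458418), which encodes a lipid droplet protein that inhibits triglyceride breakdown, had 8.97 CPM at day 220 and 21.7 CPM at day 160, 2.42-fold lower (2.11 to 2.77), and its log2 ratio of -1.19 was -0.78 against genes of like intron length. DDIT4, an inhibitor of mTORC1 signalling that stress and low oxygen induce, had 19.6 CPM and 34.4 CPM, 1.75-fold lower (1.60 to 1.93). The mitophagy receptors BNIP3 and BNIP3L had 97.8 and 114 CPM at day 220 and 154 and 157 CPM at day 160, 1.57-fold and 1.38-fold lower. Against genes of like intron length their log2 ratios were -0.32 and -1.51 in place of -0.65 and -0.46. EGLN1, the main oxygen sensor that marks HIF for breakdown, was nearly equal at 30.8 CPM and 30.03 CPM, with a ratio interval of 0.949 to 1.107, and its log2 ratio of 0.04 lay below 0 under each other scaling. EGLN3 (2.89 and 2.62 CPM), ANKRD37 (2.81 and 2.02 CPM) and NDRG1 (0.31 and 0.36 CPM) were not counted. CA9, the carbonic anhydrase often used as a marker of hypoxia, had 0 UMIs at day 220, for which a limit of 3 UMIs is 0.115 CPM, and 3 UMIs at day 160, so its ratio could not be read.

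**Figure D2:**
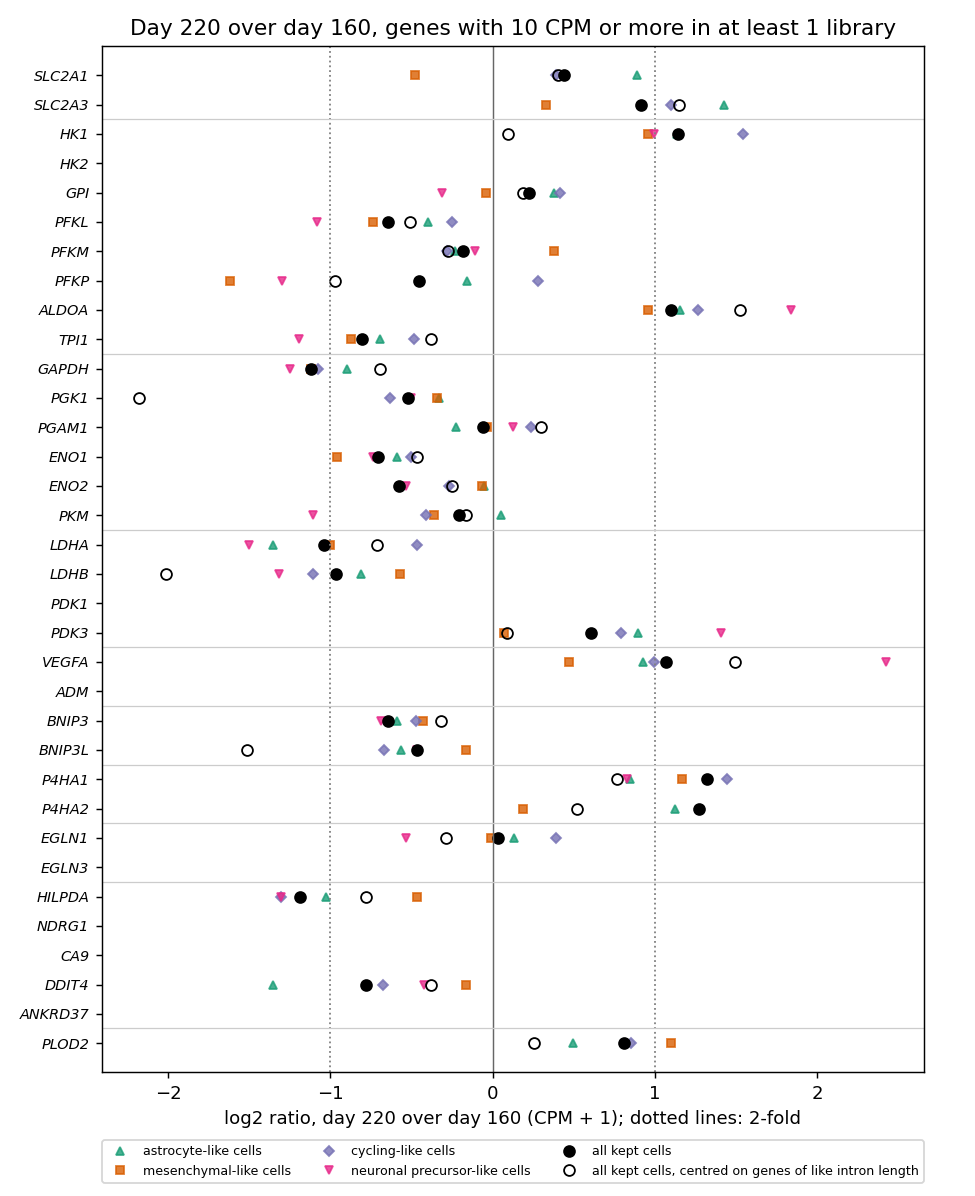
Log2 ratio of day 220 over day 160 for the 27 counted genes, with filled circles for all kept cells, open circles for the ratio centred on genes of like intron length, and coloured symbols for 4 classes of cells. By the class ratios, which are not centred, GAPDH lies below 0 in each class and HK1 and ALDOA lie above 0 in each. The rows without symbols are the genes that were not counted.

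Of the 8 members past 2-fold over all cells, 7 were counted in all 4 classes and kept their direction there. P4HA2 was counted in 2 classes, and its ratio was 2.32 in astrocyte-like cells (1.89 to 2.85) and 1.14 in mesenchymal-like cells (0.956 to 1.37). Clusters were made in each library without the 34 members, and a class was named from its markers: astrocyte-like (108 cells at day 220 and 2680 at day 160), mesenchymal-like (52 and 231), cycling-like (37 and 2392) and neuronal precursor-like (35 and 1639). The leading genes of the astrocyte-like clusters were SPARCL1 with HLA class II genes at day 220 and HLA class II genes with SERPINA3 at day 160. Of 8 mesenchymal or fibroblast markers, 4 at day 220 and 3 at day 160 were at least 2-fold over the rest in mesenchymal-like cells. The fibroblast markers COL3A1, LUM and DCN had at most 0.08 CPM over either whole library. The summed glycolysis level was lower at day 220 in each class. It was 3979 CPM at day 220 and 6150 CPM at day 160 in astrocyte-like cells, 4420 and 7662 CPM in mesenchymal-like, 3952 and 6654 CPM in cycling-like and 1973 and 3889 CPM in neuronal precursor-like cells. These are 1.55-fold, 1.73-fold, 1.68-fold and 1.97-fold lower.

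Between 2 and 4 members were at least 2-fold higher at day 220 within a class, and 2 to 8 lower. In astrocyte-like cells 4 of 27 counted members were higher, where 22.8% of genes were, and 3 lower, where 4.8% were. In mesenchymal-like cells the counts were 2 higher and 2 lower of 27, against 19.5% and 5.46% of genes, and in cycling-like cells 4 higher and 3 lower of 26, against 24.8% and 2.76%. Neuronal precursor-like cells had 3 higher and 8 lower of 23, against 27.7% and 7.01%, and this was the class with the fewest UMIs at day 220. In all 4 classes the share of members on the higher side was below the background, and on the lower side it was above it, on counts as small as 2. These ratios were not centred on intron length, and no difference from the background was read from them.

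Of the 23 members counted in every class, 12 were below 0 in all 4 and 5 above 0 in all 4, while 6 differed between classes. None was past 2-fold in every class. Centred on genes of like intron length, HK1 and PDK3, which were above 0 in all 4, fell below 0 in 1 class each. ENO2 and DDIT4, which were below 0 in all 4, then lay above 0 in 2 classes each. GAPDH was 1579 CPM at day 220 and 2937 CPM at day 160 in astrocyte-like cells, 1767 and 3842 CPM in mesenchymal-like cells, 1491 and 3146 CPM in cycling-like cells, and 747 and 1781 CPM in neuronal precursor-like cells. Its log2 ratio ran from -1.25 to -0.90, so the classes shared the direction and differed in size. GAPDH was 1.86-fold lower in astrocyte-like cells (1.82 to 1.90) and 2.38-fold lower in neuronal precursor-like cells (2.19 to 2.60). LDHA lay at -1.35 in astrocyte-like cells, with 47.5 CPM at day 220 and 123 CPM at day 160, and at -0.47 in cycling-like cells, with 128 CPM and 177 CPM. HK1 lay between 0.96 and 1.54, ALDOA between 0.96 and 1.84, P4HA1 between 0.83 and 1.44, and VEGFA between 0.47 and 2.43. The upper ends of ALDOA and VEGFA came from neuronal precursor-like cells, on 12 and 15 UMIs at day 220. There the 2 genes reached 10 CPM at day 220 only, with 16.2 and 20.3 CPM against 3.82 and 2.96 CPM. Their ratio intervals were 2.03 to 8.27 and 3.44 to 13.1. PFKP had the widest range of the 6 that differed in sign, with 57.5 CPM at day 220 and 179 CPM at day 160 in mesenchymal-like cells, a log2 ratio of -1.62, and 51.5 CPM and 42.2 CPM in cycling-like cells, a ratio of 0.28.

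Across clusters within a library, the summed glycolysis level spread more widely than the summed hypoxia-response level. Summed glycolysis ran from 1973 CPM in neuronal precursor-like cluster 7 to 4420 CPM in mesenchymal-like cluster 4 at day 220, and from 3778 CPM in cluster 8 (led by SST and POU3F4) to 7662 CPM in mesenchymal-like cluster 10 at day 160. The summed hypoxia-response level stayed between 321 and 454 CPM at day 220 and between 398 and 538 CPM at day 160. BNIP3 and BNIP3L made up 211 of its 411 CPM over the whole day 220 library and 311 of 462 CPM at day 160. Single members spread widely or little in both groups. At day 160 the highest cluster was 32.1-fold over the lowest for P4HA2 (18.2 to 62.8) and 22.8-fold for SLC2A1 (17.1 to 31.0). For BNIP3L it was 1.34-fold and for PGK1 1.19-fold. Cluster 9 at day 160, of which 85.7% were marked as doublets, was set aside.

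**Figure D3:**
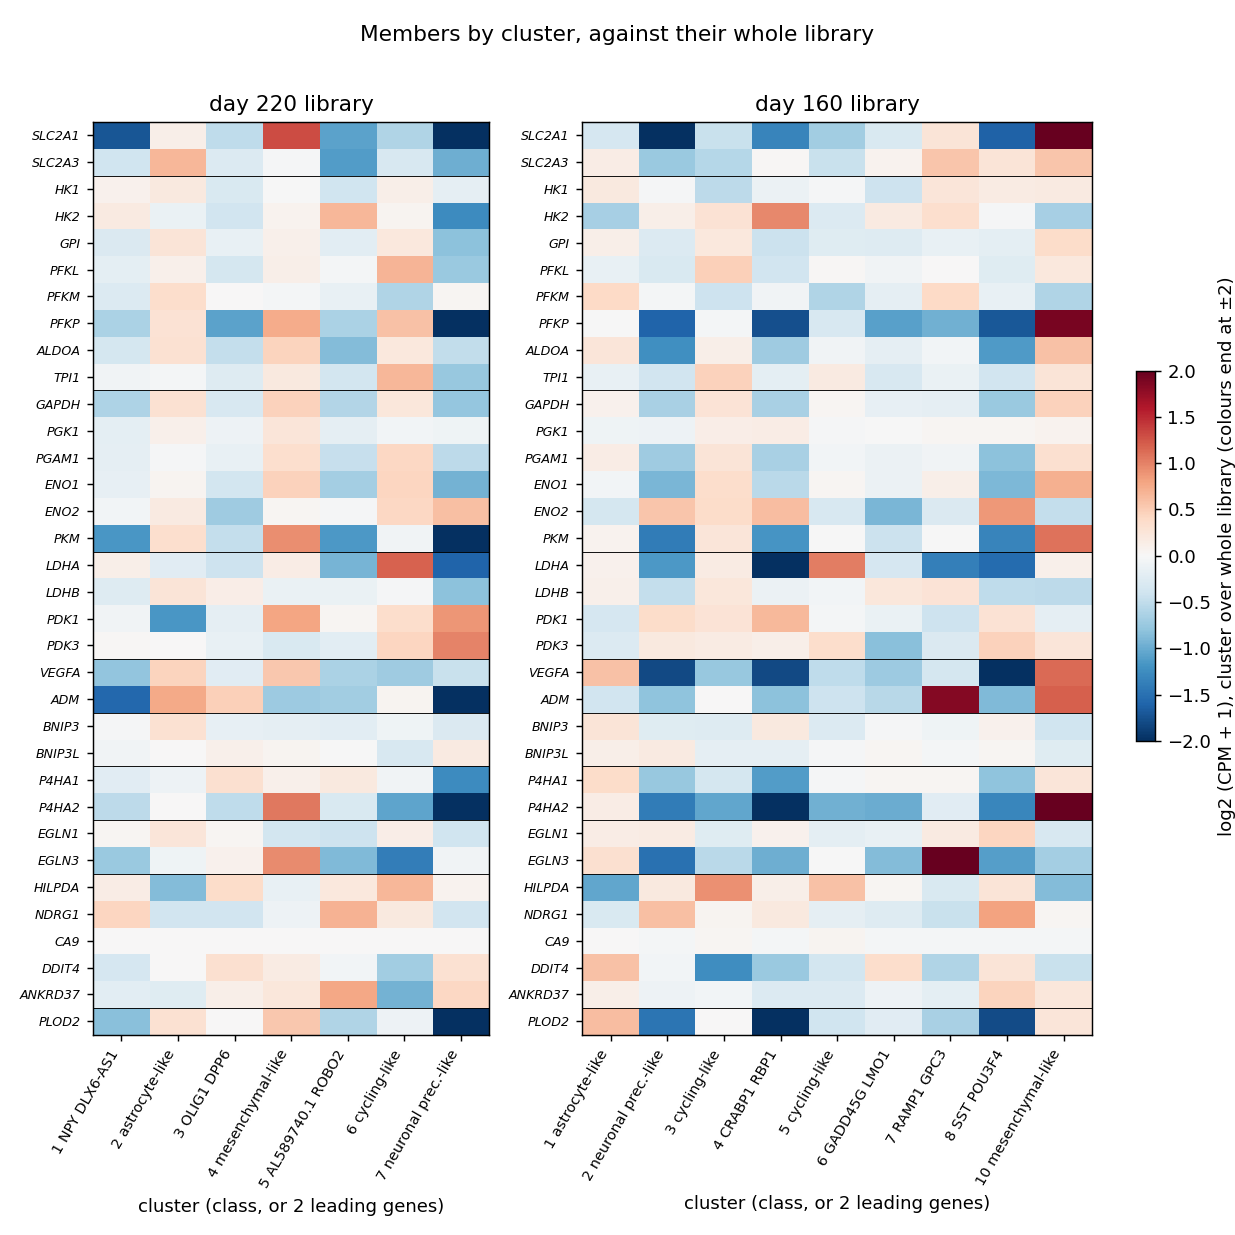
Members by cluster as log2 of cluster CPM + 1 over whole-library CPM + 1, day 220 at left and day 160 at right, red for higher and blue for lower with colours ending at ±2, and lines between roles. SLC2A1 and P4HA2 are red in the mesenchymal-like column and SLC2A1, PKM and PLOD2 are blue in the neuronal precursor-like column of both libraries.

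Mesenchymal-like cells, led by COL1A1 and TAGLN, had high levels of SLC2A1, PKM and P4HA2 in both libraries. At day 220, 3 of 26 counted members were at least 2-fold higher than in the rest of the library, where 4.86% of genes were, and at day 160 it was 5 of 27, where 6.29% were. These 3 genes were on both lists, and 0 members were 2-fold lower, where 6.94% of genes at day 220 and 4.65% at day 160 were. SLC2A1 had 76.1 CPM in mesenchymal-like cells and 20.5 CPM in the rest at day 220, and 107 CPM and 14.8 CPM at day 160, ratios of 3.72 (3.22 to 4.29) and 7.20 (6.67 to 7.77). PKM had 686 CPM and 289 CPM at day 220, and 883 CPM and 374 CPM at day 160. P4HA2, whose product modifies collagen, had 41.2 CPM and 14.7 CPM at day 220, and 36.0 CPM and 4.97 CPM at day 160. The other transporter gene, SLC2A3, had 16.5 CPM in mesenchymal-like cells at day 220, against 16.9 CPM in the whole library. At day 160 it was higher in these cells, with 12.9 CPM against 8.48 CPM in the whole library. PFKP and VEGFA were past 2-fold at day 160, where PFKP had 179 CPM and 35.7 CPM.

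Neuronal precursor-like cells, led by CALB2 with DCX or SCGN, were low in glycolysis transcripts. At day 220, 7 of 26 counted members were at least 2-fold lower than in the rest of the library, where 15.2% of genes were, and at day 160 it was 7 of 25, where 11.7% were. SLC2A1, PFKP, PKM, LDHA and PLOD2 were on both lists. At day 160 low levels were not particular to this class. Unnamed cluster 4, led by CRABP1, had 27.6 CPM of LDHA, 2.52 CPM of PLOD2 and 13.3 CPM of PFKP. Neuronal precursor-like cells had 51.7, 5.92 and 14.8 CPM. Summed glycolysis was 3778 CPM in cluster 8 and 3889 CPM in neuronal precursor-like cells. At day 220 each gene on both lists was lowest in neuronal precursor-like cells, and SLC2A1 and PKM were so at day 160 too. PKM had 71.8 CPM in these cells and 367 CPM in the rest at day 220, and 156 CPM and 437 CPM at day 160, 5.12-fold lower (3.91 to 6.84) and 2.80-fold lower (2.67 to 2.95). LDHA had 17.6 CPM and 56.8 CPM at day 220, and 51.7 CPM and 121 CPM at day 160. SLC2A1 rested on 4 UMIs in these cells at day 220, with 5.42 CPM against 31.1 CPM in the rest, 5.74-fold lower (2.23 to 21.1). PDK3 was the 1 member past 2-fold on the higher side, at day 220, with 74.5 CPM in these cells and 35.8 CPM in the rest, where 9.08% of genes were higher, and at day 160 it was 0 members, where 3.71% were. These cells were shallow, with a median of 19957 UMIs at day 220 and 5845 at day 160, and the part of depth was not tested.

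Cycling-like cells had 1 member at least 2-fold higher at each day, LDHA at day 220 (128 CPM, against 49.5 CPM in the rest) and HILPDA at day 160 (37.9 CPM, against 15.7 CPM), where 9.48% and 6.56% of genes were higher. P4HA2 at day 220 (8.83 CPM, against 20.3 CPM in the rest) and DDIT4 at day 160 (19.4 CPM, against 39.9 CPM) were lower, where 4.17% and 2.02% of genes were. In astrocyte-like cells HILPDA was at least 2-fold lower at both days, with 4.44 CPM and 10.6 CPM in the rest at day 220, and 10.1 CPM and 27.1 CPM at day 160, where 5.03% and 7.46% of genes were lower. PLOD2 was higher in them at day 160 with 28.1 CPM and 13.3 CPM, where 4.18% of genes were higher, and at day 220 it was 0 members, where 3.29% were. Among unnamed clusters, EGLN3 and ADM were concentrated in day 160 cluster 7 (led by RAMP1 and GPC3), with 13.5 CPM and 12.4 CPM there, against 2.62 CPM and 2.75 CPM over the whole library.

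Shares within pairs of isozyme genes differed more between clusters of a library than between the 2 whole libraries. The LDHA share of LDHA and LDHB was 17.5% in cycling-like cells at day 220 (15.6 to 19.5). At day 160 it was 17.0% in mitotic cycling-like cluster 5 (16.5 to 17.5) but 8.46% in cycling-like cluster 3 (8.15 to 8.79). It was 2.43% in day 160 cluster 4, led by CRABP1. The ENO2 share of both enolase genes was 11.9% and 11.1% over whole libraries at day 220 and day 160. It was 28.8% in neuronal precursor-like cells at day 220 (20.6 to 38.2) and 26.1% at day 160 (24.4 to 27.9), and 30.2% in the SST cluster at day 160. The PFKP share of PFKP and PFKM was 41.2% and 46.0% over whole libraries at day 220 and day 160. In neuronal precursor-like cells it was 9.76% at day 220, on 4 of 41 UMIs (2.72 to 23.1), and 21.5% at day 160 (18.6 to 24.7). In day 160 cluster 4 it was 20.2% (17.3 to 23.3). In mesenchymal-like cells it was 54.9% at day 220 (50.3 to 59.4) and 83.2% at day 160 (81.6 to 84.7), so it also differed between days within this class.

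**Figure D4:**
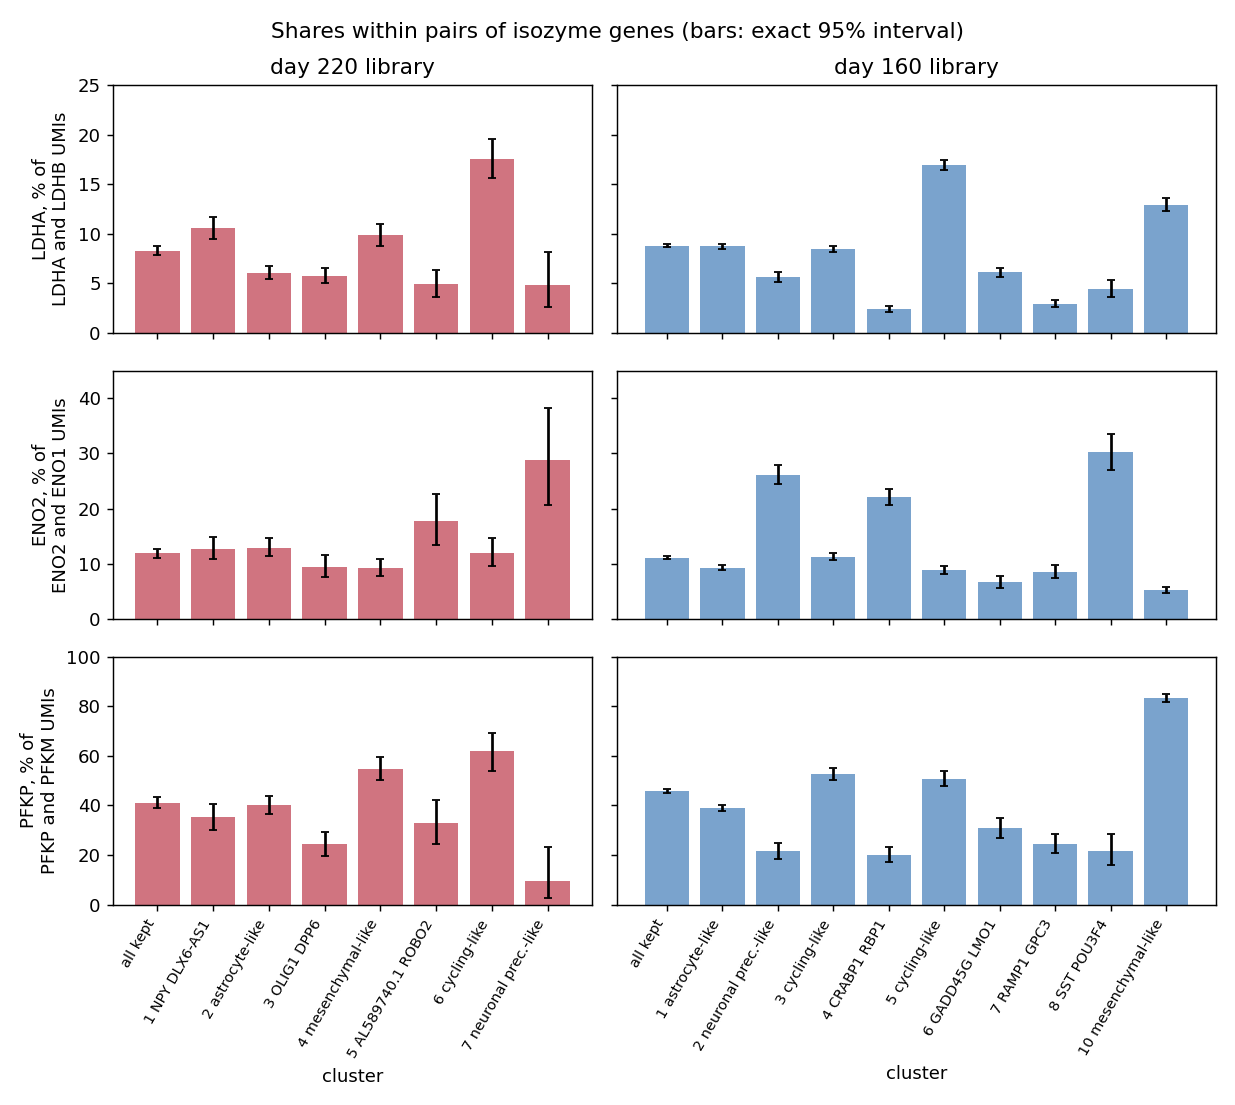
Share of LDHA, ENO2 and PFKP counts in their isozyme pair, in percent, by cluster, day 220 at left in red and day 160 at right in blue, with exact 95% intervals. The ENO2 share is highest in neuronal precursor-like cells at day 220, at 28.8%, and in the SST cluster at day 160, at 30.2%.

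Per cell, the lower glycolysis level was seen in most cells and not in a small group. Cells were thinned to 5000 UMIs, leaving 494 of the day 220 cells and 9279 of the day 160 cells, without 30 and 693 shallower ones. The median glycolysis share was 0.28% of UMIs at day 220 and 0.56% at day 160, and the 90th percentile at day 220, 0.48%, lay below the day 160 median. The hypoxia-response share had a median of 0.04% in both. GAPDH was found in 96.0% of thinned cells at day 220 (98.5% unthinned) and in 99.98% at day 160 (99.9% unthinned). LDHA was found in 20.4% and 36.3% of thinned cells, against 74.2% and 55.7% unthinned, so the order of the days turned with depth. In the clusters where it was least often found, LDHA was in 12.5% of day 220 cells (neuronal precursor-like, median 19957 UMIs) and in 11.4% of day 160 cells (cluster 4, median 7689 UMIs). Free RNA can add to such shares, and they do not count expressing cells.

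**Figure D5:**
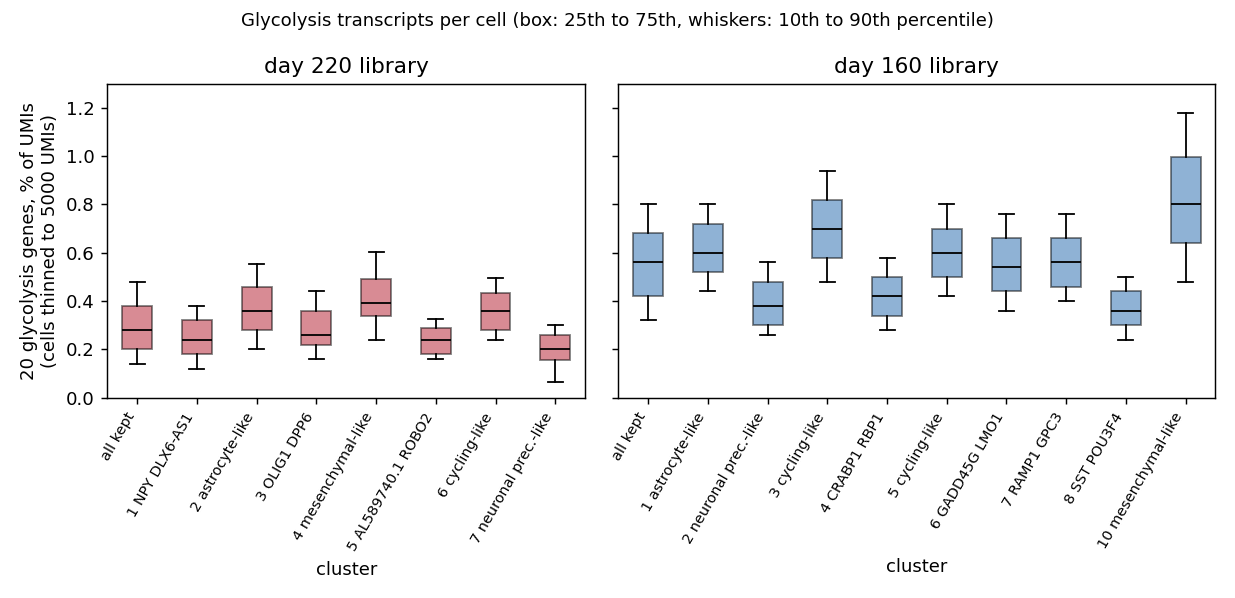
Glycolysis transcripts as a percentage of a cell's UMIs after thinning to 5000 UMIs, by cluster, day 220 at left and day 160 at right, with boxes from the 25th to the 75th percentile, whiskers to the 10th and 90th, and a line at the median. The median is 0.28% over day 220 cells and 0.56% over day 160 cells, and the highest median in each library is that of mesenchymal-like cells, 0.39% and 0.80%.

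At the thinned depth, glycolysis and hypoxia-response UMIs of a cell had a Spearman correlation of 0.07 over the 494 day 220 cells and 0.0038 over the 9279 day 160 cells, which is no finding in counts this sparse. Glycolysis UMIs had one of 0.48 and 0.38 with the UMIs of the cell before thinning, so depth per cell and glycolysis level moved together within each library. LDHA, DDIT4 and VEGFA were among the members that varied more over cells than most genes of like mean. The variance over the mean of their UMIs was 1.27, 1.31 and 1.25 at day 220 and 1.37, 1.24 and 1.09 at day 160, above 81% to 93% of 100 such genes. At day 220 and day 160, SLC2A1 lay above 79% and 92% of its like genes and SLC2A3 above 83% and 80%. PGK1 lay above only 13% and 10%. GAPDH, at 2.27 at day 220, lay above 63% of its 100 like genes.

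Without centring on intron length, counts of other genes of the same pathways past 2-fold lay near those over all counted genes. Of all counted genes, 22.8% were higher and 5.15% lower. Of 31 further genes of glycolysis and pyruvate handling, 13 were counted, with 3 higher and 0 lower at day 220. They were GBE1, the glycogen branching enzyme, at 55.6 CPM and 10.5 CPM, TIGAR, which slows glycolysis by lowering fructose 2,6-bisphosphate, at 109 CPM and 40.4 CPM, and GYS1, glycogen synthase, at 12.9 CPM and 5.67 CPM. Against genes of like intron length GBE1 was within 2-fold, at 0.64 in place of 2.30. Of 10 genes of the HIF machinery, 8 were counted, with ARNT and ARNT2, the partners of HIF alpha subunits, higher at 28.6 CPM against 9.36 CPM and 79.7 CPM against 34.5 CPM, and 0 lower. Against genes of like intron length, 0 of these 8 were past 2-fold, with ARNT2 at -0.10 in place of 1.19. HIF1A itself had 89.0 CPM and 68.2 CPM. Of 27 further hypoxia-response genes 20 were counted, with 4 higher and 1 lower. Against genes of like intron length, 7 were higher, where 10.4% of all genes were, and 1 lower, where 7.54% were. The higher side thus lay above the background under that scaling. The circadian repressor gene BHLHE41 had 34.8 CPM at day 220 and 0.66 CPM at day 160, the nuclear receptor gene RORA 98.9 and 3.81 CPM, the carbonic anhydrase gene CA12 37.6 and 3.59 CPM, and STC1, a secreted glycoprotein gene, 23.1 and 11.0 CPM. LOX, which crosslinks collagen, was the lower one at 7.35 CPM and 37.2 CPM. GYS1, ARNT, BHLHE41, RORA and CA12 reached 10 CPM at day 220 only and LOX at day 160 only. They thus entered these counts on the side where they were high.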

How the data were processed

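The 2 libraries were compared by their labelled day. The authors deposited raw UMI counts per gene and barcode, and per the file headers these came from Cell Ranger 7.0.1. The submitters' processing notes name Cell Ranger 7, Seurat 4 and hg38. The use of intronic reads and of strand in counting and the annotation release were not given in the sources used here, and overlapping and antisense genes are therefore uncertain. Of 145 annotated pseudogenes named after members, 62 of them after GAPDH, 0 were in the feature table, and how reads from them were counted is not known. The members and gene lists were chosen with earlier results of these data known.

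Barcodes with 1000 or more genes and at most 15% mitochondrial UMIs were kept, and doublets marked by Scrublet (1.15% of kept barcodes at day 220 and 5.85% at day 160) stayed in, with an alternative without them. Counts were summed per library, cluster or class and scaled to CPM, and genes with 10 CPM in at least 1 library were counted by a 2-fold rule on log2 of CPM + 1. Intervals are exact Poisson, conditional binomial or Clopper-Pearson. With 1 library per day no p-value was computed. Intron lengths came from GENCODE release 29 on GRCh38, in 20 bins. Clusters came from scanpy 1.11.5 (2000 variable genes, 30 components, 15 neighbours, Leiden resolution 0.5) in each library, without the members. The scripts were tested on simulated data. The text names all members and, of the other lists, genes past 2-fold, and HIF1A, which was named after its values were seen.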

Additional observations from a re-analysis of the deposited data

Results flagged for a closer look

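The members also gave signal in barcodes outside the filters, which no comparison above used, and each value lies above the limit that a count of 0 allows. In barcodes over 15% mitochondrial UMIs, glycolysis members summed to 2884 CPM at day 220 (105 barcodes) and 4837 CPM at day 160 (2924 barcodes), and hypoxia-response members to 343 CPM and 430 CPM. The kept cells had 3401 and 5922 CPM of glycolysis members, so the order of the days was the same outside the mitochondrial limit. In barcodes under 1000 genes within that limit, glycolysis members summed to 6878 CPM at day 220 (6130 to 7693, on 307 UMIs in 47 barcodes) and 4188 CPM at day 160 (3844 to 4555, in 122 barcodes), so the order of the days was turned there. Hypoxia-response members had 358 CPM at day 220, on 16 UMIs, and 537 CPM at day 160 in those barcodes.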

How the results depend on the processing

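Of the 18 alternatives, the 2 filters on level cannot change the ratio of a single gene and were not run for it. The 8 members past 2-fold kept their direction in each of the other 16, or in the 13 where P4HA2 was counted, and were past 2-fold in 9 (LDHA) to 14 (GAPDH) of them. Without replicates, a median was taken as moved when it changed by more than 0.1. The values 5 higher, 3 lower and the medians of -0.21 (all), -0.33 (glycolysis) and 0.04 (hypoxia-response) changed as follows. Leaving out mitochondrial and ribosomal protein genes gave medians of -0.31, -0.44 and -0.068, and moved the median of all genes from 0.14 to 0.04. Centring on the median of all counted genes gave 3 higher and medians of -0.34, -0.47 and -0.10. Centring on intron length gave 3 higher and a hypoxia-response median of -0.29. It also gave 3 lower, which were other members than the 3 lower before. A minimum of 50 CPM gave 1 higher and medians of -0.58, -0.58 and -0.56, and a pseudocount of 5 CPM gave 2 higher and 1 lower. A limit of 10% mitochondrial UMIs gave -0.34 over all members and 0.15 for hypoxia-response, and thinning gave -0.38 and -0.24. The mean over cells gave -0.18 for glycolysis. Without MKI67 or TOP2A cells, 1 was lower and the medians were -0.34 and -0.051 for all and hypoxia-response members. Within classes, the hypoxia-response median was -0.012 in mesenchymal-like (2 higher), -0.040 in cycling-like and -0.47 in neuronal precursor-like cells (3 higher, 8 lower, medians of -0.53 for all and -0.63 for glycolysis), and the glycolysis median was -0.19 in astrocyte-like cells. The classes other than astrocyte-like were added after seeing the data. The hypoxia-response median thus changed sign under 9 alternatives, and the cause was not tested. Leaving out marked doublets changed the counts of members past 2-fold between classes and the rest by at most 1. No paired analysis was possible because each day had 1 library. With 4 UMIs of SLC2A1 or PFKP in neuronal precursor-like cells at day 220, depth limits values of small clusters.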
